A study of Bos taurus with 8 samples.

Results

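The genes described here carry the signal of bacterial lipopolysaccharide (LPS) and of bacterial peptidoglycan into the cell, and the measurement is the methylation of the DNA in and around them. They are CD14, LY96, LBP, MYD88, TIRAP, TICAM1, IRAK4, IRAK2, TRAF6 and NOD1. The members are all windows that carry one of these 10 gene names, together with 2 windows on each side. The rule uses names and no measured value, but it was set with earlier results of these data known. All 10 names were found, on 84 windows, which with 40 flanking windows makes 124 of the 902984 windows in the files and 10 of the 26107 gene names. MIRA-Seq was performed on genomic DNA of dermal fibroblast (DF) cultures from 4 Holstein heifers, a dairy breed, and 4 Angus heifers, a beef breed. The heifers were of the same age, their skin cells were grown in serum-containing medium to passage 5, no culture of either breed was treated, and there was 1 library per animal. Breed is the only difference between the groups that the labels give, and 4 animals stand for each breed. A culture holds whatever cells grew out of the skin, and reads from DNA do not show which cell type they came from, so the labelled cell type could not be checked here.

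LPS is handed over from the serum protein LBP to CD14 on the cell surface and on to LY96, the small protein that holds it on Toll-like receptor TLR4. The receptor then recruits the adaptor MYD88 through TIRAP, which gathers the kinases IRAK4 and IRAK2 and the ubiquitin ligase TRAF6 and leads to NF-kB and cytokine genes such as IL8, or it recruits TICAM1, which leads to the interferon genes. NOD1 works apart from these, as a sensor in the cytosol for fragments of peptidoglycan. DNA methylation in vertebrates lies on CpG sites, and active promoters with many CpG sites are usually free of it while gene bodies usually carry it.

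MIRA-Seq binds methylated fragments with methyl-CpG binding proteins and counts them, so a window with more methylated CpG gives more reads. The values are reads in a 3Kb window per 1000000 reads of the library (CPM), or for a gene the mean of this over its windows, which compares genes per length. CpG density and the number of DNA copies also enter the reads and were not separated from methylation. The libraries held from 18691111 to 35525554 reads over all windows, and 3 reads, taken as the smallest count that can be told from 0, correspond to 0.0844 to 0.161 CPM. These floors cover counting error only, since copies made by PCR are not independent. Reads were spread unevenly between libraries: windows on unplaced scaffolds held 19.98% of the reads of Holstein 1 and 26.1% of those of Angus 3, against 10.6 to 16.1% in the other 6 libraries. Holstein 1 and Angus 3 were the 2 lowest libraries in 8 of the 10 genes, all but CD14 and MYD88. The mean of these 2 libraries was from 0.439 times (IRAK4) to 0.967 times (CD14) the mean of the other 6. The breed fits therefore used TMM factors, which rescale the library sizes, and the breed tests, the first-window comparison and the order of levels were repeated without these 2 libraries.

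**Figure D1:**
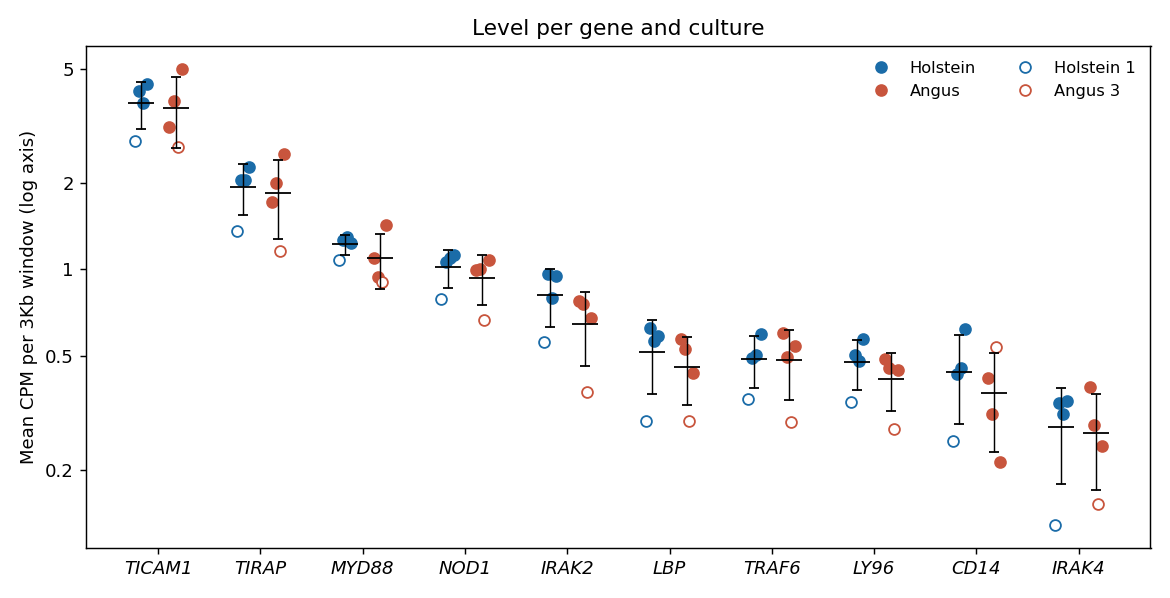
Mean CPM per 3Kb window (vertical axis, log scale) of each gene in each culture, ordered by the mean over 8 libraries. Each point is 1 culture, horizontal bars with whiskers are the mean and SD of 4 cultures of a breed, and open circles are Holstein 1 and Angus 3. The genes run from TICAM1 at 3.73 CPM to IRAK4 at 0.276 CPM, and on this scale, CPM without TMM factors, the cultures of the breeds overlap in every gene.

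Methylation signal differed more between the genes than between the breeds. The adaptors stood highest: TICAM1 had 3.73 CPM per window over the 8 libraries, TIRAP 1.89 and MYD88 1.16. NOD1 followed with 0.976 and the kinase IRAK2 with 0.731, while LBP (0.488), TRAF6 (0.484), LY96 (0.445), CD14 (0.405) and IRAK4 (0.276) lay lowest. Among all named genes, TICAM1 lay above 96.1% of the genes, TIRAP above 86.3%, MYD88 above 74.0% and IRAK4 above 26.7%, and the median gene had 0.522 CPM. The ranges over 8 libraries of neighbours in this order overlapped for every pair except TICAM1 and TIRAP. Within each library, TICAM1 exceeded TIRAP, TIRAP exceeded MYD88, NOD1 exceeded IRAK2 and IRAK2 exceeded LBP in 8 of 8 libraries, whereas LBP exceeded TRAF6 in 4 of 8. MYD88 exceeded NOD1, TRAF6 exceeded LY96 and CD14 exceeded IRAK4 in 7 of 8 libraries each, and LY96 exceeded CD14 in 6 of 8. TICAM2, an adaptor outside the 10 genes, had 0.493 CPM per window. The adaptors among the 10 cover 2 or 3 windows each, and the part of gene length in their level was not tested.

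In mean CPM over 8 libraries, all 10 genes exceeded their 4 flanking windows, as did 58.4% of all genes. The excess was present in 8 of 8 libraries for 8 of the 10 genes, against 37.8% of all genes. CD14 exceeded its flanks in 7 libraries and LY96 in 6. The excess was 3.01 CPM for TICAM1, with 3.73 CPM in the gene and 0.718 CPM in its flanks. It was only 0.0321 CPM for LY96, whose windows averaged 0.445 CPM and flanks 0.413 CPM.

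**Figure D2:**
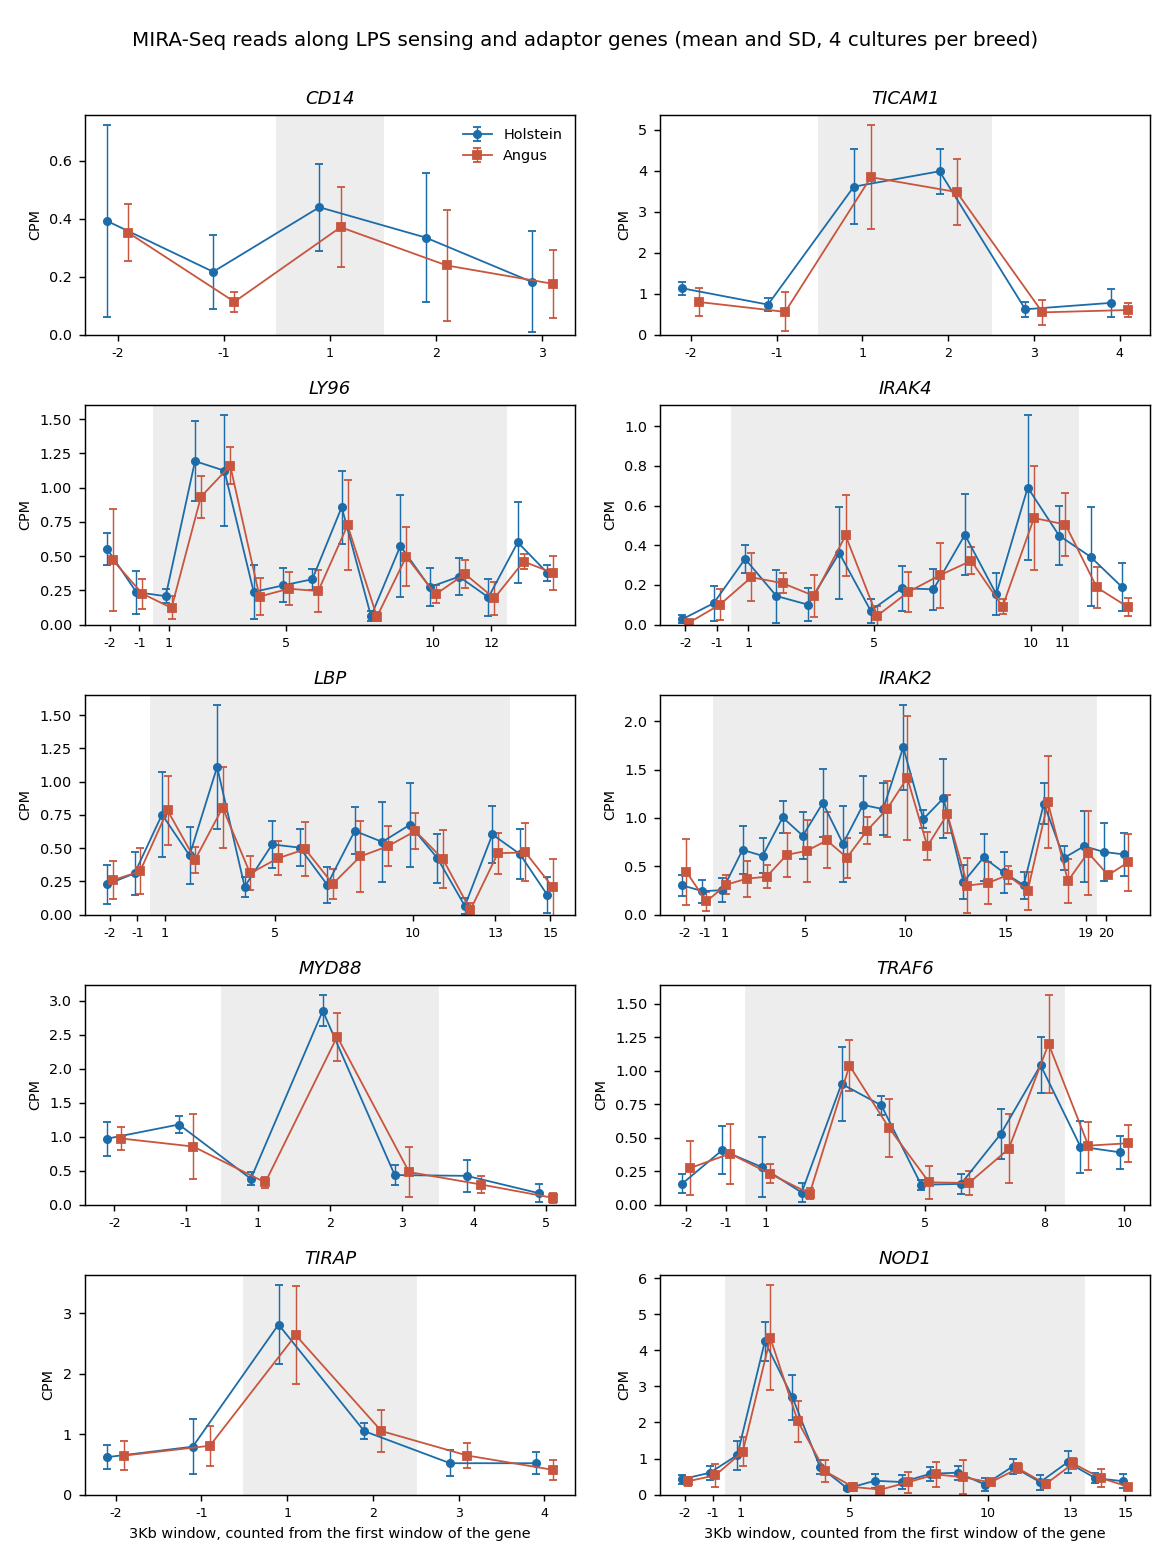
CPM (vertical axis) in each 3Kb window of the 10 genes (shaded) and in the 2 windows on each side, counted along the gene in the direction of its strand (horizontal axis). Points are means of 4 cultures and whiskers the SD, for Holstein (circles) and Angus (squares). The highest values are 4.29 CPM over 8 libraries in window 2 of NOD1 and 3.73 and 3.74 CPM in the windows of TICAM1, and the profiles of the breeds follow each other.

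Of the proteins that bind and hand over LPS, CD14 fits in a single window, chr7:53447546-53450545 on UMD v3.1, on the minus strand, which the files give coding exon 2. It held 5, 10, 12 and 22 reads in the Holstein cultures 1 to 4, against 12, 9, 16 and 4 in the Angus cultures 1 to 4, that is 0.440 ± 0.150 CPM (SD, n = 4) and 0.371 ± 0.139 CPM (SD, n = 4). The lowest culture was Angus 4 and the highest Holstein 4, and the breeds overlapped throughout. With 90 reads in all, CD14 was the least covered of the 10 genes.

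LBP lies on chr13:67872797-67911796, plus strand, in 13 windows, and its reads were spread along the gene with a lead in the third window. That window, which holds coding exon 2, had 11, 34, 40 and 32 reads in the Holstein cultures 1 to 4, against 29, 32, 15 and 11 in the Angus cultures 1 to 4. The first window of LBP, with coding exon 1, had 15, 21, 8 and 37 reads in the Holstein cultures against 26, 14, 20 and 20 in the Angus cultures. Near the end of the gene, window 12 with coding exon 14 was almost empty, at 12 reads over all 8 libraries.

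LY96 occupies 12 windows on chr14:39368947-39404946, plus strand. Its first window, with coding exon 1, had 4, 6, 6 and 5 reads in the Holstein cultures against 7, 2, 2 and 2 in the Angus cultures, a mean of 0.165 CPM that lies near the smallest count that can be told from 0. The next windows, which hold no coding exon, were its highest, with 1.06 CPM in window 2 and 1.14 CPM in window 3. In window 3 there were 12, 29, 28 and 56 reads in the Holstein cultures 1 to 4, against 33, 37, 29 and 23 in the Angus cultures 1 to 4. Across the gene, windows without a coding exon averaged 0.611 CPM and those with a coding exon 0.214 CPM, and window 8, with coding exon 3, held 13 reads in all.

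Among the adaptors, MYD88, the hub through which most Toll-like receptors and the IL1 receptor signal, covers 3 windows on chr22:11644767-11653766, plus strand. Its second window, chr22:11647767-11650766, held 76.6% of the reads of the gene, with 52, 70, 81 and 95 reads in the Holstein cultures 1 to 4, against 65, 68, 67 and 56 in the Angus cultures 1 to 4. The first window, with coding exon 1, had 6, 7, 13 and 15 reads in the Holstein cultures against 10, 6, 11 and 7 in the Angus cultures. All 8 cultures thus shared a low first window (0.353 CPM) beside a high second one (2.66 CPM). The 2 windows before MYD88 carry the name of ACAA1, a thiolase of the peroxisome that runs on the minus strand, and had 1.02 and 0.971 CPM. A window carries at most 1 gene name in the files, and the start sites of transcription are not given there, so how much of each gene lies in the shared region was not determined here.

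TIRAP, the adaptor that brings MYD88 to TLR4, has 2 windows on chr29:30013419-30019418, plus strand. The first, with coding exon 1, held 37, 70, 78 and 121 reads in the Holstein cultures 1 to 4, against 66, 85, 51 and 67 in the Angus cultures 1 to 4, or 2.81 ± 0.659 CPM (SD, n = 4) and 2.64 ± 0.809 CPM (SD, n = 4). The second had 1.05 CPM. Holstein 1 and Angus 3 were the lowest cultures of the gene.

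TICAM1, the adaptor of the interferon arm, also has 2 windows, chr7:20546246-20552245 on the plus strand, and the files give both of them coding exon 1. There were 45, 92, 102 and 154 reads in the first window in the Holstein cultures 1 to 4, against 100, 113, 73 and 103 in the Angus cultures 1 to 4. The second window held 66, 101, 99 and 160 reads in the Holstein cultures against 79, 109, 86 and 84 in the Angus cultures. Both windows lay above 98.2% of all windows, and the signal was lower outside the gene. The window before it had 0.643 CPM and the window after it 0.580 CPM, where the median of all windows was 0.280 CPM. The deepest base of the second window was covered from 13 to 31 times per library at a mean coverage of 2.13 to 5.21. The part of copies made by PCR in these reads was not tested.

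IRAK4, the kinase that starts the cascade behind MYD88, covers 11 windows on chr5:36875806-36908805, minus strand, and had the lowest level of the 10 genes. Its highest window, window 10 with coding exon 11, held 4, 25, 19 and 27 reads in the Holstein cultures 1 to 4, against 24, 15, 6 and 11 in the Angus cultures 1 to 4. The first window, without a coding exon, had 5, 8, 8 and 15 reads in the Holstein cultures against 6, 12, 5 and 3 in the Angus cultures. Just upstream, the window with coding exon 1 of the neighbour PUS7L, on the opposite strand, had 21 reads in all, and the one beyond it 4 reads, the emptiest of the 124 windows.

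IRAK2, a partner of IRAK4 that sustains the signal, is the longest of the genes, with 19 windows on chr22:16693767-16750766, minus strand. Signal was highest in the middle: window 10, with coding exon 3, had 24, 37, 49 and 80 reads in the Holstein cultures 1 to 4, against 42, 57, 15 and 32 in the Angus cultures 1 to 4. By contrast the first window, with coding exon 1, had 4, 10, 4 and 8 reads in the Holstein cultures against 9, 11, 5 and 7 in the Angus cultures, 0.281 CPM over the 8 libraries against 1.57 CPM in window 10.

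TRAF6, the ubiquitin ligase that passes the signal to the kinases of NF-kB, has 8 windows on chr15:67766457-67790456, minus strand, with high signal in windows 3 and 8. Window 3, with coding exon 1, had 13, 19, 22 and 46 reads in the Holstein cultures 1 to 4, against 35, 34, 25 and 17 in the Angus cultures 1 to 4. Window 8, with coding exon 6, had 18, 26, 22 and 46 reads in the Holstein cultures against 33, 35, 23 and 31 in the Angus cultures. The first window, which lies before the coding sequence, had 2, 5, 16 and 7 reads in the Holstein cultures against 9, 5, 5 and 5 in the Angus cultures, and window 2 held 19 reads in all.

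NOD1 spans 13 windows on chr4:66275505-66314504, plus strand, and held the highest single window of the 10 genes. This was window 2, with coding exon 3, at 77, 87, 131 and 155 reads in the Holstein cultures 1 to 4, against 87, 126, 107 and 119 in the Angus cultures 1 to 4. It lay above 98.6% of all windows and held 33.1% of the reads of the gene. Window 3 had 37, 63, 89 and 101 reads in the Holstein cultures against 48, 74, 42 and 46 in the Angus cultures. From window 5 on, no window of NOD1 exceeded 0.881 CPM, and the highest window was 22.2 times the lowest.

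Within the genes, 56 of the 84 windows held a coding exon and 28 did not. Of the 7 genes that have both kinds, the coding windows were higher in LBP, MYD88, TRAF6 and NOD1 and lower in LY96, IRAK4 and IRAK2. NOD1 had 1.14 CPM in coding and 0.616 CPM in other windows, whereas IRAK4 had 0.262 and 0.313 CPM. The order of coding and other windows thus differed among the 7 genes.

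The first window that carries a gene's name along its strand, which need not hold the transcription start, was compared with the mean of the gene's other windows within each library. It was lower in MYD88, IRAK2, LY96 and TRAF6 and higher in TIRAP. That is 4 of 9 genes lower, where 48.2% of all genes with 2 or more windows were called lower, and 1 of 9 higher, where 21.2% of all genes were. The share of lower first windows among the members is thus near that of all genes. CD14 has a single window and could not be compared.

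**Figure D3:**
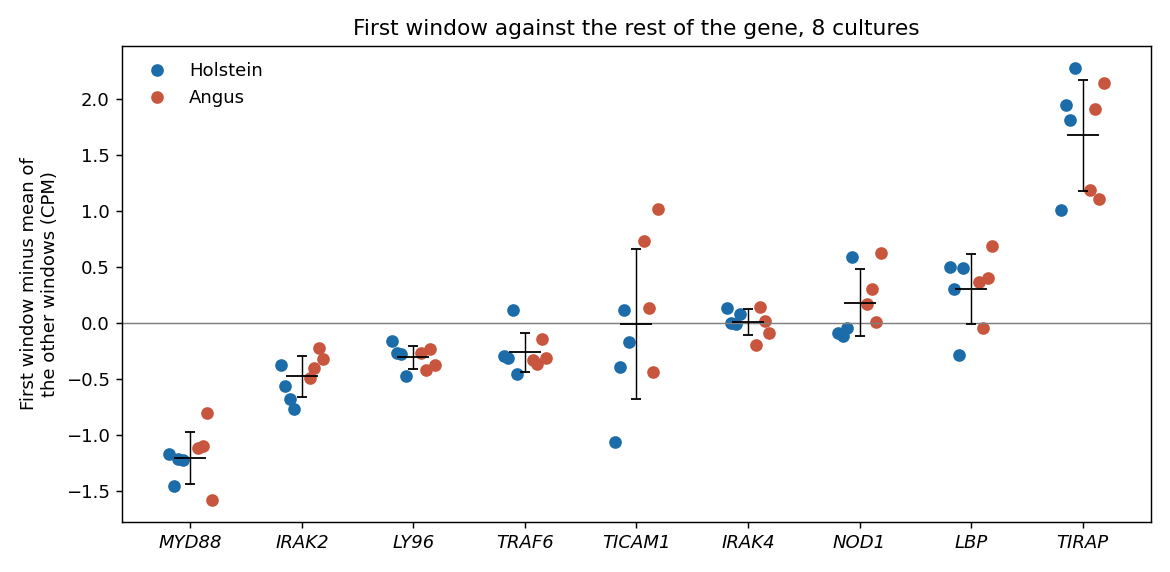
CPM of the first window minus the mean CPM of the other windows of the same gene (vertical axis), 1 point per culture, for the 9 genes with 2 or more windows. Bars with whiskers give the mean and SD of 8 cultures. MYD88, IRAK2 and LY96 lie below 0 in 8 of 8 cultures, TRAF6 in 7 of 8 and TIRAP above 0 in 8 of 8, while TICAM1 and IRAK4 scatter around 0.

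MYD88 showed the largest deficit, with 0.353 CPM in the first window and 1.56 CPM in the others, a difference of -1.21 ± 0.233 CPM (SD, n = 8), lower in 8 of 8 libraries (exact two-sided sign-flip test, p = 0.0078, the smallest that 8 libraries allow, adjusted p = 0.014). In IRAK2 the difference was -0.474 ± 0.184 CPM and in LY96 -0.306 ± 0.104 CPM (SD, n = 8), each lower in 8 of 8 libraries with the same exact p and adjusted p. TRAF6 had a difference of -0.262 ± 0.176 CPM (SD, n = 8), lower in 7 of 8 libraries (exact sign-flip test, p = 0.016, adjusted p = 0.024). Holstein 3, with 16 reads, was the exception.

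In TIRAP the first window exceeded the second by 1.68 ± 0.498 CPM (SD, n = 8) in 8 of 8 libraries (exact sign-flip test, adjusted p = 0.014). For LBP the excess of 0.304 ± 0.316 CPM (SD, n = 8) was seen in 6 of 8 libraries and missed the threshold (exact sign-flip test, adjusted p = 0.055). The difference of NOD1, 0.181 ± 0.298 CPM (SD, n = 8), was no larger than its spread (exact sign-flip test, adjusted p = 0.185), and neither was that of IRAK4 (0.0101 ± 0.115 CPM) or TICAM1 (-0.00686 ± 0.666 CPM). LBP and NOD1 passed when the median of the other windows, or a log2 scale, was used, with adjusted p from 0.0148 to 0.0478 in the exact test, and TRAF6 missed it on the log2 scale (adjusted p = 0.068). Without Holstein 1 and Angus 3 none of the 9 genes could pass, because 6 libraries allow an adjusted p of 0.0504 at best by the exact test. MYD88, IRAK2 and LY96 were then lower in 6 of 6 libraries and TIRAP higher in 6 of 6, with differences of -1.28, -0.533, -0.344 and 1.88 CPM.

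Set against the 2 windows upstream of the gene instead, the first window was lower in 2 of 9 genes, where 32.4% of 21300 genes were called lower, and higher in 5 of 9, where 30.7% were. MYD88 and LY96 had first windows below their upstream flanks, by -0.641 and -0.207 CPM in 8 of 8 libraries (exact sign-flip test, adjusted p = 0.0166 for each). TICAM1, TIRAP, NOD1 and IRAK4 had first windows above them in 8 of 8 libraries, by 2.93, 2.01, 0.659 and 0.224 CPM (same exact test, adjusted p = 0.0166 for each), and LBP in 7 of 8, by 0.488 CPM (exact adjusted p = 0.0277). In IRAK2 the upstream flanks and the first window both had 0.281 CPM (exact adjusted p = 1.00), and in TRAF6 they differed by -0.0487 CPM (exact adjusted p = 0.441). In level, the first windows of TICAM1 (3.73 CPM) and TIRAP (2.73 CPM) lay above those of 97.1% and 94.8% of all genes, while that of LY96 lay above 18.8%.

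In 0 of the 9 genes did the breeds separate in this comparison at an exact p under 0.05, as 2.06% of all genes did. The largest contrast was in TICAM1, where the first window minus the second was -0.377 ± 0.501 CPM for Holstein and 0.363 ± 0.646 CPM for Angus (SD, n = 4 each), a difference of -0.740 CPM (exact two-sided permutation test, p = 0.171). The smallest p of the 9 genes was that of IRAK2, at -0.594 CPM in Holstein and -0.355 CPM in Angus (exact permutation test, p = 0.0857, where 4 against 4 can reach 0.0286).

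The breeds were then compared gene by gene and window by window, since cultures of these breeds were set up to ask whether methylation accompanies a different response to LPS. None of the 10 genes was called between Holstein and Angus at FDR < 0.1 and FC ≥ 2 in edgeR's likelihood-ratio test on the reads summed per gene, which called 0.127% of 25195 genes. At an unadjusted p under 0.05 the count was also 0 of 10, against 2.73% of all genes. With edgeR's quasi-likelihood test and DESeq2 it was 0 of 10 as well at both thresholds (567 and 395 of 25195 genes at the unadjusted one). No gene passed FDR < 0.1 at any fold either (0.167% of all genes), and in CPM no gene had all Holstein cultures above all Angus cultures (0.508% of all genes) or the reverse (0.131%). With TMM library sizes, a scaling added after the data were seen, 1 of the 10 genes, IRAK2, had all Holstein cultures above (1.1% of all genes) and 0 had all Angus cultures above (0.778%). The members' log2 fold changes (Holstein over Angus) ran from -0.11 (TRAF6) to 0.21 (IRAK2) with a median of 0.00, the median over all genes. 5 genes were positive and 5 negative. TMM factors hold the middle of all genes near 0, so a shift shared by most genes cannot be seen in this fit. The values give only where the members lie relative to the other genes.

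**Figure D4:**
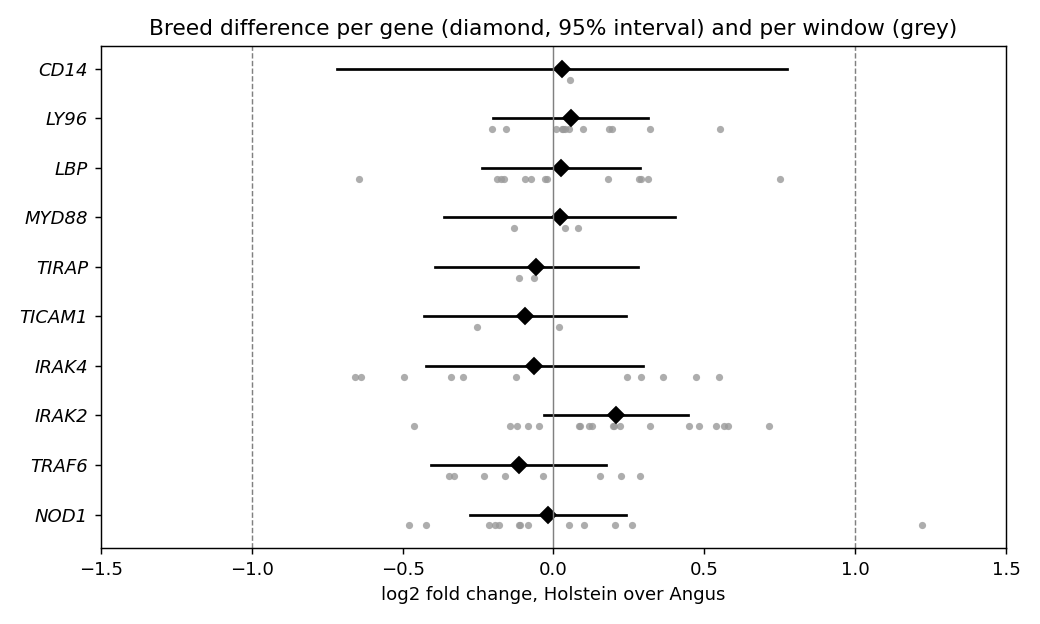
Log2 fold change of Holstein over Angus (horizontal axis) for each gene, as a diamond with its 95% interval, and for each of its windows as a grey point below. Dashed lines mark a fold change of 2 in either direction. In this fit with TMM factors all 10 gene intervals include 0 and lie within the dashed lines, and window 6 of NOD1, at 1.22, is the only window of the genes beyond them.

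The fit with TMM factors gives an approximate interval for each difference. For 9 of the genes the 95% interval of the log2 fold change lay between -0.43 (TICAM1) and 0.45 (IRAK2), that is between 0.742-fold and 1.36-fold. With the animal number as a block in the fit, the intervals of these genes reached 0.709-fold in IRAK4 and 1.42-fold in IRAK2. In CD14, with few reads, the interval ran from -0.72 to 0.77. With total counts only as library sizes the intervals were wider, from -0.17 to 0.85 in IRAK2 and from -0.66 to 1.16 in CD14, which passes 2-fold. IRAK2 had the largest difference, with 0.559, 0.964, 0.793 and 0.948 CPM per window in the Holstein cultures 1 to 4, against 0.775, 0.758, 0.375 and 0.676 in the Angus cultures 1 to 4. These overlap, whereas with TMM library sizes the Holstein cultures had 0.732 to 0.773 CPM per window and the Angus cultures 0.566 to 0.711. Its log2 fold change was 0.21 (SE 0.12, interval -0.03 to 0.45, edgeR's unadjusted p = 0.088 and FDR = 1.00). Of its 19 windows, 14 had a positive log2 fold change, as had 10 of 12 in LY96 and 46 of the 84 windows of all 10 genes. Windows of a gene come from the same 8 libraries and are not replicates. Without Holstein 1 and Angus 3 the log2 fold change of IRAK2 was 0.12.

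LBP and CD14 differed by 0.02 (SE 0.13) and 0.03 (SE 0.38) on the log2 scale and LY96 by 0.06 (SE 0.13). In the adaptors the values were 0.02 (SE 0.20) for MYD88, -0.06 (SE 0.17) for TIRAP and -0.09 (SE 0.17) for TICAM1. For the rest they were -0.06 (SE 0.18) for IRAK4, -0.11 (SE 0.15) for TRAF6 and -0.02 (SE 0.13) for NOD1. In CPM without TMM factors the Holstein mean was the higher in all 10 genes, for example 1.22 ± 0.098 against 1.09 ± 0.238 CPM per window (SD, n = 4 each) in MYD88 and 3.80 ± 0.710 against 3.66 ± 1.02 in TICAM1. With total counts alone, however, the median log2 fold change of all genes was 0.15. The directions of TIRAP, TICAM1, IRAK4, TRAF6 and NOD1 flip with this scaling. Without Holstein 1 and Angus 3 the 10 log2 fold changes ran from -0.20 (TRAF6) to 0.49 (CD14), and that of MYD88 changed sign to -0.02. In that fit 0 of the 10 genes had an unadjusted p under 0.05 in edgeR, where 696 of all 25164 genes did.

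No single window was called either. Of the 84 windows, 18 had 1 CPM or more in 4 or more libraries, where 115360 of all 902984 windows did. By gene there were 6 in IRAK2, 3 in NOD1, 2 each in LY96, TIRAP and TICAM1, and 1 each in LBP, MYD88 and TRAF6. CD14 and IRAK4 had none. Of these 18 windows, 0 were called by edgeR's likelihood-ratio test, where 0.231% of 115360 windows were, and 0 had an unadjusted p under 0.05 (4.94% of all). The quasi-likelihood test and DESeq2 also gave 0 of 18 at both thresholds (5157 and 3795 of 115360 windows at the unadjusted one). With every window of 10 or more reads in the fit, 0 of the 84 were called (0.107% of 856519 windows), the smallest FDR was 0.891, and 3 had an unadjusted p under 0.05 where 4.44% of all windows did. The quasi-likelihood test gave 2 of 84 at that level, where it gave 31283 of all 856519 windows. Log2 fold changes were positive in 46 of the 84 and negative in 38, with a median of 0.03. Reads per window over the 8 libraries ran from 12 to 889.

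Window 6 of NOD1, chr4:66290505-66293504, which holds no coding exon, was the window of the genes with the smallest p. It had 4, 15, 10 and 11 reads in the Holstein cultures 1 to 4, against 4, 5, 4 and 2 in the Angus cultures 1 to 4. In CPM these were 0.202, 0.649, 0.378 and 0.310 against 0.140, 0.174, 0.134 and 0.107, that is 0.385 ± 0.191 against 0.139 ± 0.0274 (SD, n = 4 each). In CPM every Holstein culture lay above every Angus culture here and in no other of the 84 windows, as in 1.02% of all windows tested, and 0 of the 84 had all Angus cultures above, against 0.233% of all. The log2 fold change was 1.22 (SE 0.45, edgeR's FDR = 0.891), so the window was not called. It rests on 55 reads in all, and without Holstein 1 and Angus 3 the log2 fold change was 1.41 with an edgeR FDR of 0.844.

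With TMM library sizes 3 of the 84 windows had all Holstein cultures above, where 1.3% of all windows did, and 1 had all Angus cultures above, where 1.08% did. The first 3 were this window and windows 3 and 6 of IRAK2, with log2 fold changes of 0.48 (SE 0.32) and 0.45 (SE 0.26). The other was window 4 of LBP, with 2, 6, 6 and 9 reads in the Holstein cultures 1 to 4, against 13, 7, 5 and 7 in the Angus cultures 1 to 4, and a log2 fold change of -0.64 (SE 0.43, edgeR's FDR = 1.00). These were named after their values were seen, and none was called.

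The other windows with an unadjusted p under 0.05 were window 4 of IRAK2, with coding exon 2 and a log2 fold change of 0.54 (SE 0.27), and window 14 of IRAK2, with coding exon 8 and 0.71 (SE 0.33). They were picked out after their values were seen, and in both the breeds overlapped. Among the 40 flanking windows, the second one upstream of TRAF6 had 4, 5, 4 and 2 reads in the Holstein cultures against 14, 11, 5 and 1 in the Angus cultures, with a log2 fold change of -1.12 (SE 0.48, edgeR's FDR = 1.00). The highest windows of the genes did not separate the breeds either: in window 2 of NOD1 the log2 fold change was -0.19 (SE 0.26), in window 2 of MYD88 0.04 (SE 0.25) and in window 2 of TICAM1 0.02 (SE 0.25).

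Around these genes, 30 further genes of LPS, Toll-like receptor and NOD signalling were looked at in the same fit. None of the 30 was called in edgeR, 0 had an unadjusted p under 0.05 (2.73% of all genes), and the smallest p was 0.181. In this fit, centred near 0 over all genes, their log2 fold changes had a median of 0.00 and 15 of the 30 were positive. TLR4, the LPS receptor itself, had 0.480 CPM per window for Holstein and 0.463 for Angus, and its log2 fold change was -0.10 (SE 0.20). The largest values were 0.23 (SE 0.17) for TICAM2, the adaptor that links TLR4 to TICAM1, and 0.18 (SE 0.27) for the kinase TBK1. The smallest were -0.21 (SE 0.20) for TOLLIP, which dampens IRAK signalling, and -0.14 (SE 0.18) for RIPK2, the kinase behind NOD1.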

How the data were processed

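Genomic DNA of 8 un-treated DF cultures (4 Holstein, 4 Angus) was measured by MIRA-Seq. The authors filtered reads, aligned them to UMD v3.1 with NextGENe (2.3.4 per the file headers; CASAVA 1.7 is named in the submitters' processing notes) and deposited raw counts per 3Kb window, not normalized, with coverage per window, a signal not scaled for depth. The handling of duplicate and multiply matching reads is not given in the sources used here. No input library was used here.

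Counts were divided by the total over windows (CPM). Breeds were compared in R 4.3.3 with edgeR 4.0.16 (TMM, estimateDisp, likelihood-ratio test after the study's methods, Benjamini-Hochberg over all features), on windows with CPM of at least 1 in at least 4 libraries, on windows with at least 10 reads and on reads summed per gene name. The quasi-likelihood test is beside it. Standard errors were back-calculated from the fold change and its chi-square p-value, and 95% intervals use them. The first window was compared within libraries by an exact sign-flip test, adjusted over 21319 genes and called at adjusted p under 0.05 (Python 3.11.15, scipy 1.17.1). P-values of the breed fits rest on the spread between these cultures, which edgeR estimates with help from the other features. With 1 library per animal, spread between animals, cultures and libraries cannot be told apart. P-values of the sign-flip test measure how steady a difference within libraries was. Tests were run on simulated data first. No 2 libraries of a breed were alike within sampling noise.

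Members and lists were chosen with earlier results of these data known. Named were each member's first and highest window, windows with FDR < 0.1 or separated at 2-fold, and TLR4 with the 2 largest and 2 smallest changes of the 30 genes. Other windows are named as counted. The fits were repeated with the quasi-likelihood test, with DESeq2 1.42.0, with total counts, DESeq2 size factors, no unplaced scaffolds, the animal number as a block, other filters and thresholds, parts of genes, and leaving out libraries. Leaving out Holstein 1 and Angus 3 together, and setting the breeds' ranges side by side with TMM library sizes, were chosen after seeing the data.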

Additional observations from a re-analysis of the deposited data

Results flagged for a closer look

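In 58 groups of 4 cultures (the members' levels, first windows and highest windows), 3 had a culture far from the other 3 by Dixon's 95% criterion, about what chance flags, which is 1 group in 20. In IRAK4, Holstein 1 had 0.129 CPM per window and the other Holstein cultures 0.313 to 0.348. In window 2 of MYD88, Angus 4 had 3.00 CPM and the other Angus cultures 2.25 to 2.36. In the first window of MYD88, Angus 2 had 0.209 CPM, from 6 reads, and the others 0.349 to 0.375. Holstein 1 was also low in other members, and the part of this in the value was not tested.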

How the results depend on the processing

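The counts of members called between the breeds were 0 in each of the 3 fits under every alternative run, leave-one-out fits included. The largest number of members with an unadjusted p under 0.05 was 4 of 84 windows (edgeR, without Angus 2 or Holstein 3). Over all windows these fits gave 36214 of 848125 without Angus 2 and 35519 of 849805 without Holstein 3. Over all genes, edgeR's likelihood-ratio test called 32, its quasi-likelihood test 0 (567 at an unadjusted p under 0.05) and DESeq2 9, and over all windows past the CPM filter they called 267, 141 and 141. The animal numbers in the labels are shared between the breeds but are not stated to pair animals. Same-numbered cultures had a mean correlation of deviations of -0.0023 (range -0.157 to 0.139), against 0.0028 for others. With the number as a replicate block, 0 members were called and window 1 of CD14 changed to -0.011.

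Signs of small log2 fold changes moved. With total counts only they were 0.080 for TIRAP, 0.061 for TICAM1, 0.085 for IRAK4, 0.016 for TRAF6, 0.12 for NOD1 and 0.12 for window 1 of TIRAP. With the first window of each gene only they were -0.19 for LBP, 0.29 for IRAK4, -0.45 for IRAK2 and 0.14 for TRAF6, and without it 0.040 for TICAM1 and 0.0015 for NOD1. Without Holstein 1 and Angus 3 they were -0.016 for MYD88 and -0.0018 for window 10 of IRAK2. When each library was left out, values lay from -0.14 to 0.47 for CD14, -0.14 to 0.079 for IRAK4, -0.018 to 0.079 for LBP, -0.094 to 0.12 for MYD88, -0.075 to 0.038 for NOD1, -0.23 to 0.049 for TICAM1 and -0.17 to 0.084 for TIRAP. By window they lay from -0.12 to 0.49 for window 1 of CD14, -0.42 to 0.074 for window 1 of LBP, -0.15 to 0.35 and -0.13 to 0.19 for windows 1 and 2 of MYD88, -0.42 to 0.033 for window 2 of NOD1, -0.18 to 0.16 for window 2 of TICAM1, -0.23 to 0.12 for window 1 of TIRAP and -0.55 to 0.41 for window 1 of TRAF6. None of these passed a threshold in any fit, and the cause was not tested.

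The 5 genes called for their first window were 5 to 6 when each library was left out (LBP passed without Angus 2 or Holstein 3, adjusted p 0.0476 and 0.0472 in the exact test). Of all 21319 genes, these runs called 9809 to 9988 lower and 4116 to 4307 higher. Without Holstein 1 and Angus 3 there were 0 members and 0 of all genes, since 6 libraries cannot pass. In that run the first window minus the rest was -0.0121 CPM for IRAK4 and 0.241 CPM for TICAM1. Leaving out single libraries gave -0.00885 to 0.0399 CPM for IRAK4 and -0.153 to 0.144 CPM for TICAM1, and against the upstream flanks TICAM1 gave 2.93 CPM. At least 8 of the 10 genes kept their rank of level in every alternative run. The median member window held 103 reads over 8 libraries, and the standard error of the log2 fold change was 0.86 in window 12 of LBP with 12 reads, 0.28 in window 1 of LBP with 161 and 0.26 in window 2 of NOD1 with 889.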
